A study of Mus musculus with 25 samples.

Results

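The Dppa5a locus was examined as a 10 kb bin of mouse chromosome 9, chr9:78360001-78370000 (mm10), with the bin on either side. Every pair of bins that touched one of these 3 bins was taken from 9 lists of chromatin interactions, which gave 52 distinct pairs out of 493983 in all lists. Of the 52 pairs, 22 touched the Dppa5a bin itself and 30 touched only a flanking bin. The bin had been picked for its number of H3K27ac interactions in embryonic stem (ES) cells against fibroblasts, so the numbers and strengths of that contrast are given as a description, with no test. RefSeq (GRCm38.p6) places Dppa5a at chr9:78367052-78368199, inside the bin, and the authors' gene columns also assign the bin to Dppa5a.

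The libraries came from 9 groups that follow fibroblasts on the way to induced pluripotency and compare them with pluripotent cells. HiChIP ligates DNA ends that lie near each other in the nucleus and then precipitates them with an antibody, here against KLF4, one of the reprogramming transcription factors, or against H3K27ac, the acetylated histone tail found at promoters and enhancers in use. Hi-C ligates in the same way without an antibody. There were 21 HiChIP and 4 Hi-C libraries. The ES cells were the V6.5 line in 2i medium, which holds mouse cells in naive pluripotency, with 2 H3K27ac, 4 KLF4 and 2 Hi-C libraries. The mouse embryonic fibroblasts (MEFs) came from E13.5 embryos of the rtTA3-OKSM strain and were taken at passage 3, with 2 H3K27ac and 2 Hi-C libraries; they carried 1 copy each of rtTA3, the OKSM cassette and an Oct4-GFP reporter. Both reprogramming groups were such fibroblasts given doxycycline, which switches on OKSM (Oct4, Klf4, Sox2 and c-Myc), together with ascorbic acid, and had KLF4 libraries only, 3 at day 3 (bulk cells) and 4 at day 6 (per the series' design, cells sorted for SSEA1). The last 2 groups were V6.5 cells labelled TKO in 2i, without doxycycline (0 h) or with doxycycline for 24 h, each with 3 H3K27ac libraries. The labels do not say what TKO stands for or what doxycycline switches on there, and no untreated TKO group at 24 h and no V6.5 group with doxycycline was analysed here.

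Dppa5a encodes a small RNA-binding protein of the KH-domain type that is abundant in naive pluripotent cells and germ cells and is widely used as a marker of them. Ooep, its nearest annotated neighbour, encodes a relative that belongs to the subcortical maternal complex of the egg and early embryo. Contacts between an acetylated promoter and other acetylated bins are commonly read as candidate promoter and enhancer contacts, and contact frequency falls steeply with distance along the chromosome.

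HiChIP libraries held 48.7 to 181 M contacts, and strength is the authors' CPM, the count of contacts scaled to the contact total of the same chromosome. A listed H3K27ac pair had more than 3 CPM in every library and a deposited p-value under 0.1. A pair that is not listed can therefore have any value below these limits, and 3 CPM on chromosome 9 stood for 11.3 and 15.9 counts in MEF against 26.54 and 26.97 counts in ES, by library. Some libraries of 1 group did not differ detectably beyond sampling noise in a chi-square test and were counted as 1 sample. TKO at 0 h (3 libraries), TKO at 24 h (3) and ES KLF4 (4) thus each gave 2 samples. Nothing in the labels says that replicates were separate cultures, so p-values measure the spread between these samples, which may be technical. As a check of the labels, the pluripotency genes Nanog, Pou5f1, Sall4 and Zfp42 had 11 to 23 listed H3K27ac interactions in ES and 0 or 1 in MEF, and the fibroblast genes Thy1, Col1a1 and Vim had 0 in ES and 8 or 9 in MEF. Sox2 and Esrrb had no bin in the gene columns.

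The Dppa5a bin had 0 listed H3K27ac interactions in the fibroblasts. It had 19 in ES, and the TKO lists held 16 at 0 h and 17 at 24 h. The Ooep bin, 10 kb higher on the chromosome, had 0, 23, 22 and 20 in the same order. The bin 10 kb lower had 0, 6, 5 and 7. KLF4 lists held 0 pairs at any of the 3 bins at day 3 and at day 6. In ES they held 3 at the Dppa5a bin, 3 at the Ooep bin and 4 at the lower bin. Most interactions of the Dppa5a bin did not have a deposited false discovery rate (FDR) under 0.1. Those that did were 5 of 19 in ES H3K27ac, 7 of 16 and 3 of 17 in TKO at 0 and 24 h, and 0 of 3 in ES KLF4. On all of chromosome 9 the KLF4 lists held 1207 pairs at day 3, 113 at day 6 and 1149 in ES. The number at Dppa5a was common in ES KLF4, where 22.2% of 25332 listed bins had at least as many. In ES, 323 of 40136 listed bins (0.805%) had at least as many H3K27ac interactions as Dppa5a, among them 5 of 2236 on chromosome 9. Of 12695 annotated genes, 0.236% had 0 interactions in MEF and at least as many as Dppa5a in ES, and 29.2% had 0 in MEF and some in ES; the bin was chosen on this contrast, and nothing is read from these shares. In the plot of listed interactions per list, the Dppa5a and Ooep bins stand high in the ES and TKO H3K27ac lists and at 0 to 3 in the others.

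**Figure D1:**
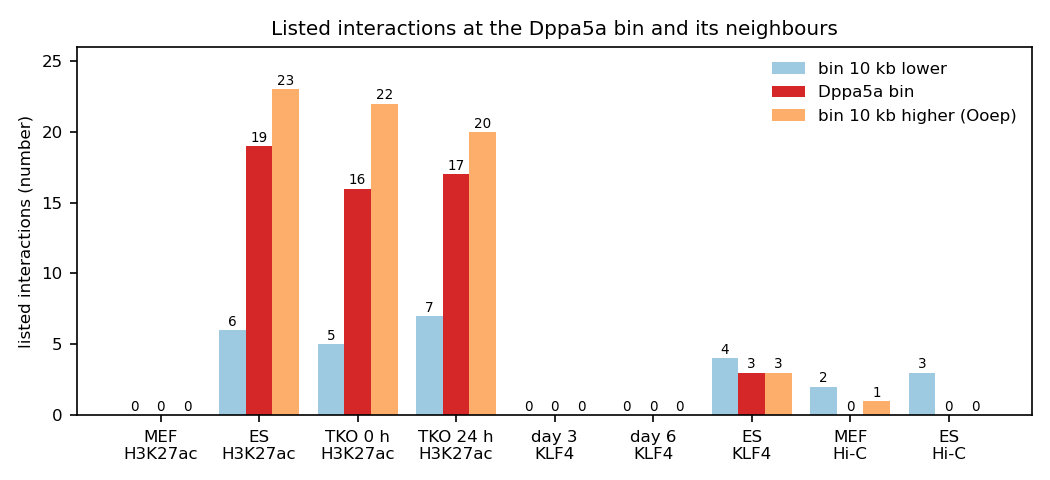
Number of listed interactions (vertical axis) at the Dppa5a bin and at the bins 10 kb lower and higher, in each of the 9 lists. The Dppa5a bin has 19, 16 and 17 interactions in the ES, TKO 0 h and TKO 24 h H3K27ac lists, 3 in ES KLF4, and 0 in the MEF, day 3, day 6 and Hi-C lists.

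The strongest partner of Dppa5a in every list that held any was the Ooep bin, chr9:78370001-78380000. Further out, the best known partner was Eef1a1, which encodes a translation elongation factor expressed in nearly all cells and lies 120 kb higher (RefSeq, chr9:78478453-78481724). The pairs with these 2 genes are also the ones that changed between the TKO groups, so the 250 bases before each gene's RefSeq start are shown. Both genes lie on the minus strand, and the windows are chr9:78378589-78378838 for Ooep and chr9:78481725-78481974 for Eef1a1 (RefSeq, GRCm38.p6, read 5′ to 3′ on the gene's strand). Capitals mark the letters CACCC or their reverse complement GGGTG, the core of sites bound by KLF factors.
Ooep: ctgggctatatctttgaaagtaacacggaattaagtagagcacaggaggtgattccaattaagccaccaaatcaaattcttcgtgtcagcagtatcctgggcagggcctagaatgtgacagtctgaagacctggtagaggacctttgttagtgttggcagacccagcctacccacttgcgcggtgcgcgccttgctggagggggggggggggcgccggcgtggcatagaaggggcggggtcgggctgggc
Eef1a1: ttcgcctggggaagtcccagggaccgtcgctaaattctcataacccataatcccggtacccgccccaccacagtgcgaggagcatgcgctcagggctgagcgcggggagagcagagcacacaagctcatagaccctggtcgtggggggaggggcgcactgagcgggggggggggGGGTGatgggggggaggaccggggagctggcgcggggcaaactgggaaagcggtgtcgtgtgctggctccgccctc
The Eef1a1 window held the core once, at base 175 of the window, and the Ooep window did not hold these letters. The core was found on either strand in 52.0% of 32851 RefSeq promoter windows of the same length. Neither window held AAGGTCA or ATGCAAA, the cores bound by ESRRB and by octamer factors, which on either strand were in 4.08% and 4.12% of the windows.

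The contact between Dppa5a and Ooep measured 83.0 and 80.1 CPM in the 2 ES libraries. In TKO cells it measured 78.4, 90.8 and 89.0 CPM at 0 h and 54.7, 66.5 and 59.2 CPM at 24 h. In ES KLF4 it measured 7.41, 11.8, 18.3 and 16.0 CPM. The contact was thus high in every ES and TKO H3K27ac library, with the TKO libraries at 24 h below all the others, and in KLF4 libraries 1 and 2 lay below libraries 3 and 4. Among listed pairs of neighbouring bins on chromosome 9 it ranked 1 of 1099 in ES and 3 of 409 in ES KLF4, and in TKO 1 of 1256 at 0 h and 2 of 1422 at 24 h. The authors' distance-normalized ratio, the count over the count expected at that distance, was 26.1 for this pair in ES, against a median of 2.26 over the listed neighbouring pairs of chromosome 9. In MEF the 734 listed neighbouring pairs of chromosome 9 ran from 6.00 to 31.3 CPM, and the pair was not among them.

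On the other side, the bin 10 kb lower (chr9:78350001-78360000) gave 21.8 and 19.9 CPM with Dppa5a in ES. It gave 26.9, 24.1 and 27.8 CPM in TKO at 0 h and 22.3, 22.9 and 23.6 CPM at 24 h. The authors' columns assign this bin to Gsta2, a glutathione S-transferase gene, although RefSeq (GRCm38.p6) places Gsta2 at chr9:78331018-78347192, below the bin. In ES KLF4 the same pair gave 5.23, 4.78, 8.11 and 4.53 CPM. The lower neighbour was thus the weaker of the 2 adjacent contacts in all 12 libraries of these 4 lists. Together the 2 adjacent contacts made up 48.1% of the summed CPM of the bin in ES and 71.7% in ES KLF4, and in TKO 51.0% at 0 h and 45.1% at 24 h.

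Between 20 and 50 kb above Dppa5a lie bins without a gene in the authors' columns, one of which (chr9:78390001-78400000) holds the RefSeq start of Ddx43, a DEAD-box helicase gene, at position 78395777. The bin 20 kb higher gave 22.9 ± 0.848 CPM in ES (SD, n = 2), 27.9 ± 3.46 and 27.6 ± 4.21 in TKO at 0 and 24 h, and 7.33 ± 1.26 in ES KLF4 (n = 2 each). These means were at or above those of the lower neighbour in all 4 lists, although the bin lies farther away. At 30 kb the mean fell to 9.98 CPM in ES and to 9.42 and 9.34 CPM in TKO at 0 and 24 h, and at 40 kb to 5.72, 4.87 and 6.85 CPM.

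Partners on the lower side were few. ES held 4 against 15 on the higher side, TKO at 0 h 4 against 12, and TKO at 24 h 6 against 11. The Omt2b bin, 40 kb lower, carries a gene first described from maturing oocytes and gave 3.62 and 4.0 CPM in ES. It gave 4.42, 7.66 and 6.54 CPM in TKO at 0 h and 6.26, 6.96 and 4.82 CPM at 24 h. The TKO libraries of the 2 times overlapped. Its relative Omt2a, 50 kb lower, was a listed partner only at 24 h, with 4.63, 3.30 and 5.05 CPM, close to the listing limit of 3.

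Below Omt2a the lists broke off. The 8 bins from chr9:78230001 to 78310000, 130 to 60 kb below Dppa5a, had 0 interactions of any kind in all 9 lists. RefSeq places there the glutathione S-transferase genes Gsta1, Gm3776 and Gm10639 and the Dppa5a pseudogenes Dppa5b and Dppa5c. Reads from near-identical copies can be hard to place, so the values of Dppa5a and of this stretch are uncertain to the extent that the alignment split or discarded them; that was not tested. By contrast, all 16 bins from 20 to 170 kb above Dppa5a had a listed H3K27ac interaction in ES, as did 7 in MEF, and 15 in each Hi-C list.

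**Figure D2:**
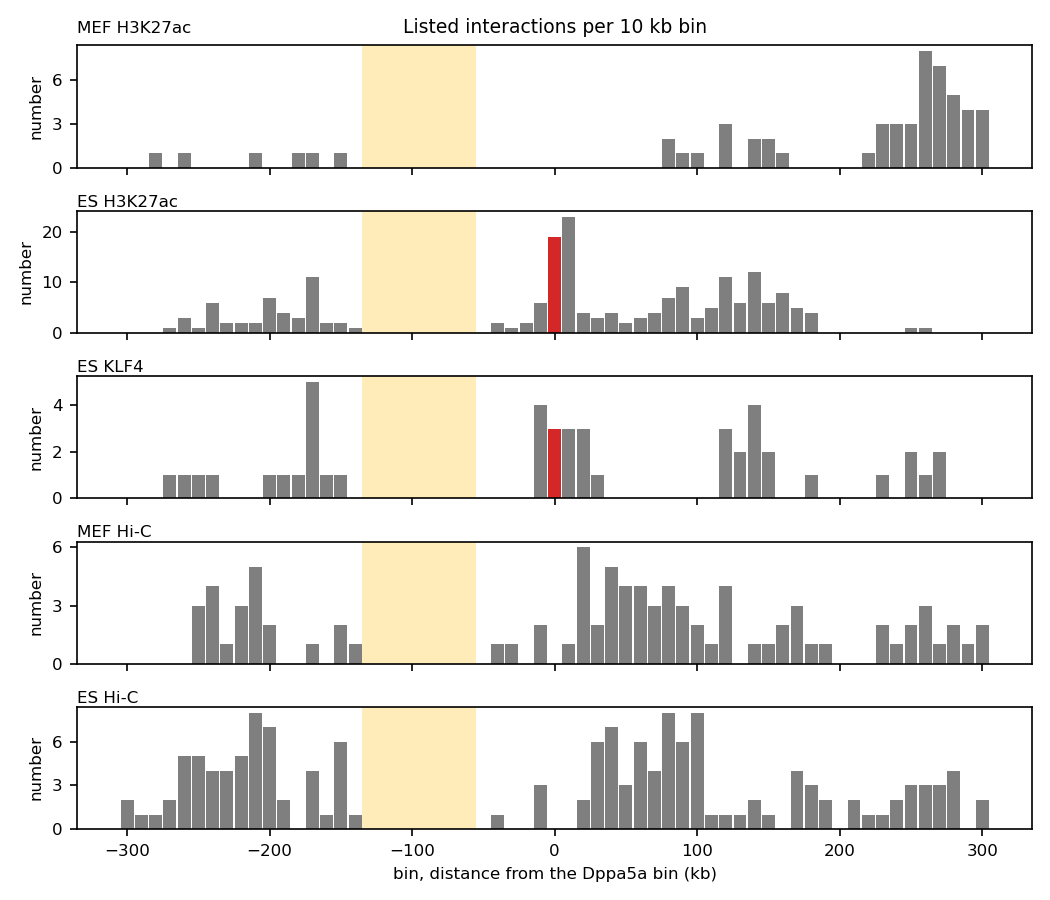
Number of listed interactions per 10 kb bin (vertical axes, scaled per panel) against distance from the Dppa5a bin in kb, for 5 of the 9 lists. The Dppa5a bin is red and the shaded band marks the 8 bins with 0 interactions in all lists.

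Past this gap a single lower partner returned at 170 kb, chr9:78190001-78200000. It has no gene in the authors' columns, which assign Gsta4 to the bin before it, while RefSeq places the start of Gsta4 at 78191966, inside it. The pair with Dppa5a gave 5.43 and 6.67 CPM in ES. It gave 8.16, 7.22 and 10.7 CPM in TKO at 0 h and 6.26, 5.13 and 5.28 CPM at 24 h, so that the 2 times did not overlap. The Ooep bin met the same partner at 10.5 and 8.79 CPM in ES, more than Dppa5a in both libraries. This bin was itself a node, with 11 listed H3K27ac interactions in ES, 14 and 12 in TKO, 5 in ES KLF4 and 1 in MEF.

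On the higher side the next named partners were the Gm8093 pseudogene at 60 kb, listed only in ES with 4.18 and 3.23 CPM, and the bin at 80 kb. That bin holds the starts of Mb21d1 (now Cgas), which encodes the DNA sensor cGAS, and of Mto1, which encodes an enzyme that modifies mitochondrial tRNA. With Dppa5a it gave 7.24 and 6.12 CPM in ES. It gave 3.74, 6.35 and 8.17 CPM in TKO at 0 h and 4.36, 5.87 and 4.13 CPM at 24 h, with overlapping libraries. Bins without a gene at 50, 70 and 90 kb had means of 3.68 to 6.18 CPM where they were listed.

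In ES and in TKO at 0 h, the Eef1a1 bin and the bin at 140 kb had higher means than any bin from 40 to 110 kb above Dppa5a. With Dppa5a, Eef1a1 gave 6.56 and 9.90 CPM in ES. In TKO cells it gave 9.35, 7.22 and 9.34 CPM at 0 h and 5.18, 4.40 and 5.28 CPM at 24 h, every library at 24 h lying below every one at 0 h. Bins without a gene followed at 140 kb, with 7.69 and 8.79 CPM in ES, and at 160 kb, with 6.10 and 4.89 CPM. The intermediate bins at 110, 130 and 150 kb stayed between 3.31 and 3.76 CPM on average in ES. In ES the distance-normalized ratio was 16.6 at Eef1a1, 18.5 at 140 kb, 13.6 at 160 kb and 15.8 at the partner 170 kb lower. It was 10.2 at 20 kb and 6.60 at 30 kb. The listing limit of 3 CPM is the same at every distance, so any far pair that is listed has a raised ratio. The weak pairs at 130 and 150 kb had ratios of 7.31 and 7.84, and the far and near ratios are given as a description.

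**Figure D3:**
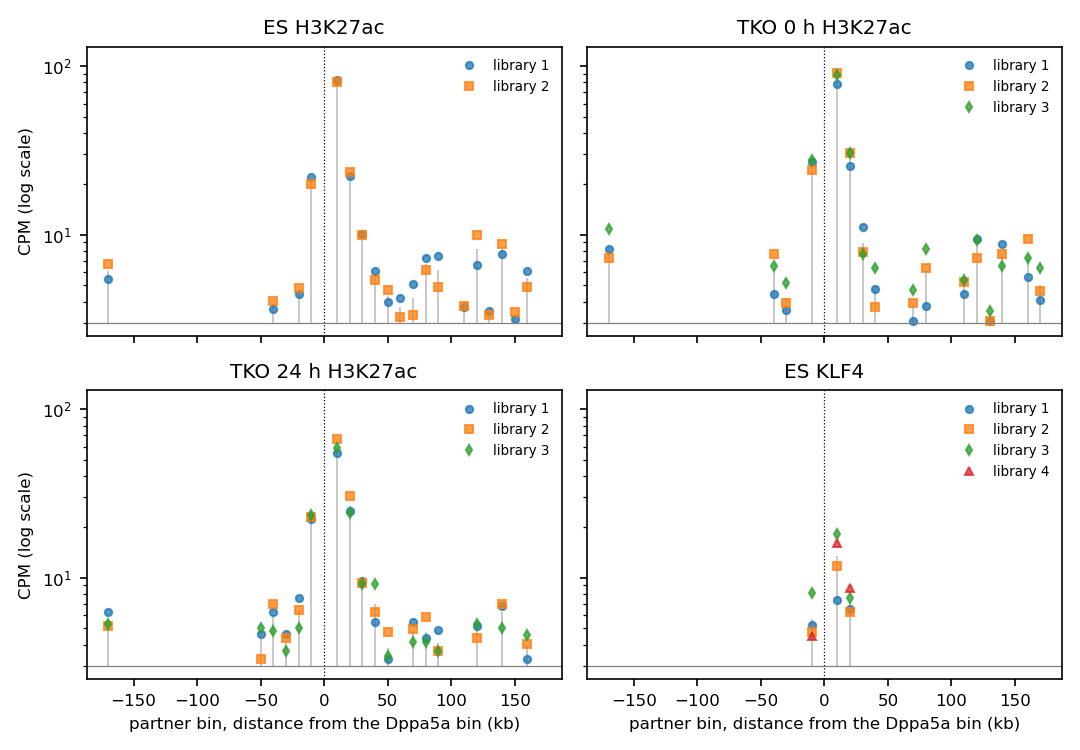
Strength of each listed pair of the Dppa5a bin in CPM (log axis) against the distance of the partner in kb, 1 symbol per library, with grey stems to the mean over libraries and a line at 3 CPM. The Ooep bin at 10 kb is the strongest partner in all 4 lists, and in ES and TKO at 0 h the bins at 120 and 140 kb lie above those from 40 to 110 kb.

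The Ooep bin met most of the same regions. Apart from Dppa5a, its strongest ES partners were the bin 10 kb above it, with 31.3 and 32.1 CPM, the lower bin assigned to Gsta2, with 26.6 and 28.6 CPM, and the bin 20 kb above it, with 10.97 and 12.1 CPM. It met the Eef1a1 bin at 6.67 and 10.2 CPM in ES. Against MEF, the region had 85 listed H3K27ac pairs within 200 kb of Dppa5a in ES and 7 in MEF, where the strongest joined Eef1a1 with the bin 20 kb above it at 8.54 CPM. The map of the region shows the ES pairs as a band along the Dppa5a and Ooep bins and as a separate cluster around Eef1a1, and the MEF pairs at a distance from Dppa5a. Between each other, the 19 ES partners of Dppa5a had 44 of 171 possible pairs listed in ES H3K27ac (25.7%) and 5 in MEF (2.92%), bins that were chosen as ES partners. In Hi-C, 22 of these pairs were listed in ES (12.9%) and 20 in MEF (11.7%).

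**Figure D4:**
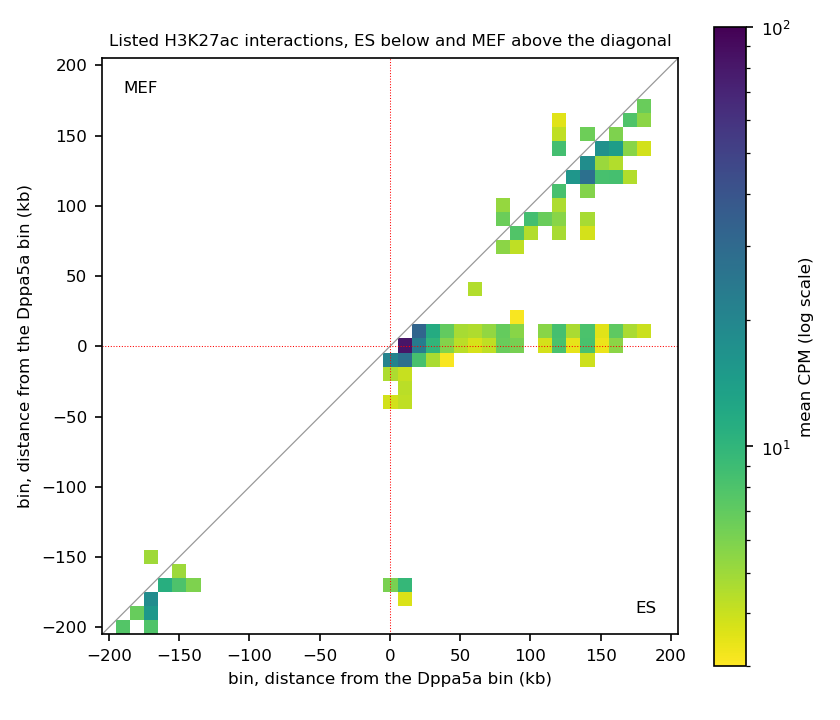
Listed H3K27ac interactions within 200 kb of the Dppa5a bin, with ES below and MEF above the diagonal; both axes give distance from the Dppa5a bin in kb, and colour gives mean CPM on a log scale. The 85 ES pairs include the band along the dotted lines at the Dppa5a bin, and the 7 MEF pairs include none there.

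The partner sets of the 3 H3K27ac lists of ES and TKO cells overlapped. ES shared 14 partners with TKO at 0 h (73.7% of the ES partners, 87.5% of the TKO ones) and 15 with TKO at 24 h (78.9% and 88.2%). Over the whole lists, TKO at 0 h shared 77.6% of the ES pairs and 62.8% of its own, and TKO at 24 h shared 72.3% and 64.8%. The TKO lists shared 13 (81.2% of those at 0 h, 76.5% at 24 h), where the whole lists shared 72.6% and 80.4%. All 3 held 12 of the 22 partners found in any of them, and every partner of one list lay within 1 bin of a partner of each other list. The latter says little on the higher side, where ES had a partner in nearly every bin from 10 to 160 kb. Of the partners in TKO, 12 of 16 at 0 h and 12 of 17 at 24 h carried an H3K27ac ChIP peak in the authors' columns (75% and 70.6%), against 70.1% and 68.0% of all partners of bins with a peak. The Dppa5a bin itself carried a peak at both times.

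The KLF4 contacts listed for Dppa5a in ES were few and lay within 20 kb. The 3 partners of Dppa5a were the bin 10 kb lower, Ooep and the bin at 20 kb. All of them were also H3K27ac partners in ES (15.8% of those). Their means in ES were 5.56, 13.0 and 7.33 CPM with KLF4, against 20.9, 81.5 and 22.9 CPM with H3K27ac. Weaker KLF4 contacts at longer range could lie under the limit of 3 CPM and not be listed, so the full range of KLF4 contacts is not known. The strongest after Dppa5a with Ooep joined the lower bin with the bin at 20 kb and gave 9.38, 8.83, 9.13 and 8.87 CPM, over the Dppa5a bin. All 4 libraries lay close together there. In each KLF4 list every pair had more than 3 CPM in libraries 1 and 2, while the other libraries went below it. The day 3 and day 6 lists shared 0 pairs of the 3 bins with ES, so no test of KLF4 strength between stages was possible at this locus. In these 2 libraries the limit of 3 CPM on chromosome 9 stood at 8.15 and 20.8 counts for day 3 and at 7.55 and 15.4 for day 6, and a contact below it in either library is not listed.

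Hi-C listed none at the Dppa5a bin, in MEF or in ES. Of the bins of chromosome 9 within the listed span, 54.1% in MEF and 57.9% in ES also had 0 Hi-C interactions, and 7.64% of annotated genes had 0 in both. The flanking bins had 3 listed pairs in each cell type. In MEF the bin 10 kb lower met the bins at 40 and 80 kb and the Ooep bin met the bin at 20 kb. In ES the lower bin met the bins at 20, 30 and 40 kb. Hi-C strength is a deposited signal on its own scale and is not comparable with CPM. The pair in both lists joined the lower bin with the bin 40 kb above Dppa5a and gave a signal of 28.2 and 24.9 in the MEF libraries, against 30.2 and 17.8 for ES. These overlapped, and the log2 difference of ES over MEF was -0.26 ± 0.29 (SE, n = 2 each; edgeR quasi-likelihood test, Benjamini-Hochberg adjusted p = 0.999; 0.0322% of the 124204 pairs tested were called). Leaving out the second ES library turned the difference to 0.11. The bin lay inside one domain in each deposited set of topologically associating domains, chr9:77400001-78760000 in MEF and chr9:78080001-79720000 in ES, and all 52 pairs lay inside both.

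Between the TKO groups, 35 pairs of the 3 bins were in both lists, and 2 of them changed, both lower at 24 h, where 2.62% of all 67728 pairs tested were called in either direction, 2.04% as lower and 0.576% as higher. They joined Dppa5a with Ooep and with Eef1a1, whose library values are given above. The contact with Ooep fell by a log2 change of -0.36 ± 0.10 (SE, n = 2 samples per time; edgeR quasi-likelihood test with Benjamini-Hochberg adjustment, adjusted p = 0.0238), from 84.1 ± 8.18 to 61.8 ± 6.63 CPM (SD). The contact with Eef1a1 fell by a log2 change of -0.71 ± 0.22 (adjusted p = 0.0412 in the same test), from 8.80 ± 0.779 to 4.81 ± 0.588 CPM. In both, all 3 libraries at 24 h lay below all 3 at 0 h. These were populations of cells, so fewer cells with a contact and fewer contacts per cell cannot be told apart. Nor can doxycycline and whatever it switches on. The counts also depend on the H3K27ac precipitation at the anchors. Without Hi-C in TKO cells, a change in acetylation and a change in contact cannot be told apart either. The adjusted p ranged over the alternatives from 8.59e-06 to 0.507 for Ooep and from 0.00938 to 0.267 for Eef1a1. The Ooep pair did not pass in DESeq2 (log2 change -0.35, adjusted p = 0.141). Leaving out a sample leaves 1 in that group, which is then assumed to vary like the other group. The Ooep pair then had log2 changes of -0.41 without the first 0 h library, -0.28 without the joined 0 h libraries 2 and 3, and -0.26 without the joined 24 h libraries 1 and 3, which did not pass (adjusted p = 0.0605, 0.507 and 0.455, edgeR). The Eef1a1 pair had -0.61, -0.85 and -0.89 in the same order and -0.60 without the second 24 h library, which did not pass either (adjusted p = 0.221, 0.128, 0.194 and 0.267, edgeR). With the replicate number as a block, the Eef1a1 pair had a log2 change of -0.67 (adjusted p = 0.0580, edgeR).

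The other 33 pairs did not pass. The pair of Dppa5a with the bin at 160 kb gave 5.61, 9.41 and 7.24 CPM at 0 h and 3.27, 4.03 and 4.59 CPM at 24 h, without overlap, and its log2 difference was -0.74 ± 0.23 (adjusted p = 0.0562, edgeR). The pair with the partner 170 kb lower had a log2 difference of -0.53 ± 0.21 (adjusted p = 0.176, edgeR). The contacts with the nearer bins at 10 kb below and 20 kb above had log2 differences of -0.08 ± 0.12 and 0.05 ± 0.12, and the pair with the bin at 40 kb had the highest, 0.63 ± 0.22 (adjusted p = 0.116, edgeR). For the Ooep bin the differences were -0.62 ± 0.22 with Eef1a1, -0.57 ± 0.19 with the bin at 140 kb and -0.59 ± 0.20 with the partner 170 kb lower (adjusted p = 0.106, 0.0891 and 0.0814, edgeR). In deposited CPM, all 24 h libraries lay below all 0 h libraries in 10 of the 35 pairs, against 17.2% of all pairs tested, and above them in 0 of 35, against 3.9%.

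The differences varied with distance but did not follow it steadily. For the Dppa5a and Ooep bins, all 11 pairs whose anchors were at least 100 kb apart had a log2 difference below 0, with a median of -0.57 and a range from -0.74 to -0.07. Of the 21 nearer pairs 7 were below 0, with a median of 0.14. Those below 0 included pairs of neighbouring bins. These were Dppa5a with Ooep (-0.36), Ooep with the bin above it (-0.25) and Dppa5a with the bin below it (-0.08). Over all pairs tested, 55.7% of those at least 100 kb apart and 48.5% of the nearer ones were below 0, with medians of -0.04 and 0.01. The division at 100 kb was chosen after the values were seen, several of the 11 pairs share a partner bin, and all share their libraries, so this is a description and was not tested. All 11 stayed below 0 in each of the 10 alternatives, with medians between -0.68 and -0.26. The alternatives refit the libraries from which the division was chosen, so their agreement carries no weight. The nearer pairs moved more: 11 of 21 were below 0 without the first 0 h library, with a median of -0.01, and 9 of 21 with contact totals alone, with a median of 0.03. Scaling by contact totals alone shifted the median of all pairs from 0.01 to -0.10; the 6 pairs of the 3 bins then called were all lower, and over all pairs 2670 were called lower and 155 higher, against 1384 and 390 before.

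**Figure D5:**
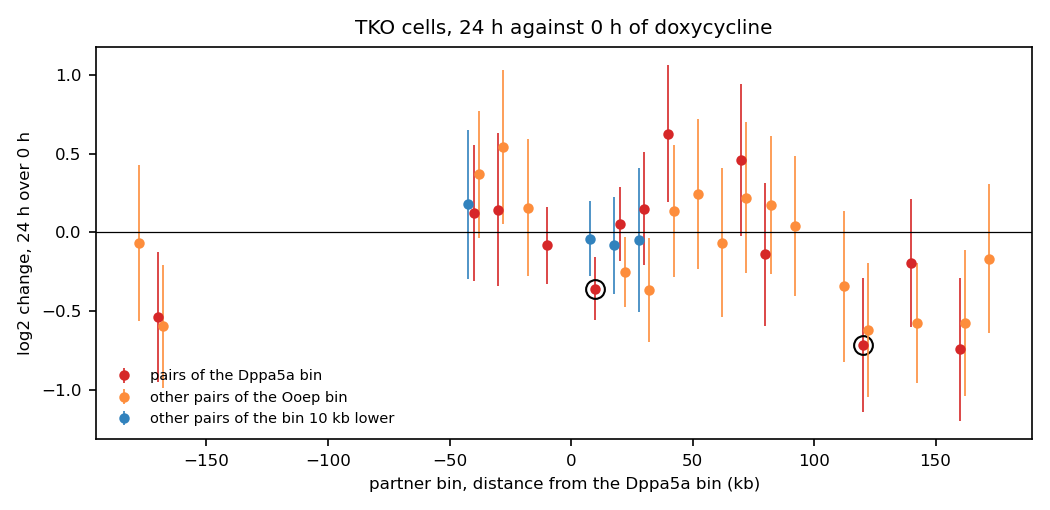
Log2 difference in contact strength, TKO at 24 h over 0 h of doxycycline (vertical axis), against the distance of the partner from the Dppa5a bin in kb, for the 35 pairs in both lists. Points are edgeR estimates, bars are 95% intervals (1.96 SE) and rings mark the 2 called pairs, with Ooep and with Eef1a1.

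Summed over the 13 pairs of the Dppa5a bin that both TKO lists held, strength was 193, 210 and 220 CPM in the 0 h libraries and 159, 178 and 162 CPM in the 24 h libraries. Every library at 24 h lay below every one at 0 h. As 2 samples per time, this was 204 ± 15.2 against 170 ± 12.2 CPM (SD, n = 2), a log2 ratio of -0.27 (two-sided exact permutation test, p = 0.333, the smallest that 2 against 2 can give). With the libraries kept separate the exact permutation p was 0.1, the smallest that 3 against 3 can give, and the design cannot reach 0.05 in either form.

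By its numbers of listed interactions over the 9 lists, Dppa5a was nearest to Gm21992 and Rbm14, which share a bin on chromosome 19, then to Tet1, Tdgf1 and Msh6. The measure was the Euclidean distance of log2(number + 1) over 12695 genes, 0.45 for Gm21992 and Rbm14, 0.87 for Tet1, 0.98 for Tdgf1 and 1.05 for Msh6. Rbm14 encodes an RNA-binding coactivator, Tet1 a 5-methylcytosine dioxygenase, Tdgf1 the Nodal co-receptor Cripto and Msh6 a mismatch repair protein. Tet1 had no listed H3K27ac interaction in MEF, 11 in ES and 13 at each TKO time, and Tdgf1 had 0, 14, 13 and 9. Both had 3 KLF4 interactions in ES, as Dppa5a did, and 0 at day 3, at day 6 and in Hi-C. The nearest, the bin of Gm21992 and Rbm14, had 0, 14, 16 and 15 H3K27ac interactions in the same order, and 3 in ES KLF4. Msh6 had 0, 29, 28 and 17, and 2 in ES KLF4.

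The other Dppa genes, which share a naming by expression in pluripotent cells, had the same absence in MEF with fewer interactions. Dppa2 had none in MEF, 8 H3K27ac interactions in ES, and 9 and 7 in TKO at 0 and 24 h. Dppa3, a maternal factor that guards DNA methylation in the early embryo, had 0, 9, 10 and 9, and Dppa4 had 0, 5, 5 and 3. Khdc3, which encodes a KH-domain member of the subcortical maternal complex like Ooep, had 0 in MEF and 8 in ES, and 2 at each TKO time. Among the higher neighbours, Eef1a1 had 3 in MEF and 11 in ES, Slc17a5, a lysosomal sialic acid transporter gene, had 1 and 0, and Cd109, a surface glycoprotein gene 250 kb above Dppa5a, had 3 and 1. On the lower side, the bin assigned to Gsta4 had 1 in MEF and 3 in ES, and that of the noncoding C920006O11Rik had 0 and 4.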

How the data were processed

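Reads were aligned to mm10 with Bowtie2 2.2.3, per the submitters' processing notes; the interaction caller, the domain caller and the test behind the deposited p-values are not given in the sources used here. Per the file headers, the authors deposited for each pair of 10 kb bins a raw count, a CPM (a signal named CPM in Hi-C, where the total contacts are unknown) and a distance-normalized ratio per library, and a p-value and an FDR per pair. The deposited CPM was the count scaled to the contact total of the same chromosome. Domains were deposited as positions in steps of 40 kb with a score that was not used. The listed limits, found in the values, were 3 CPM (in every H3K27ac library and in libraries 1 and 2 of the KLF4 lists) and a p-value of 0.1 in HiChIP, and a signal of 15 and a p-value of 0.01 in Hi-C.

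Counts of pairs in both lists were tested with edgeR 4.0.16 in R 4.3.3 (glmQLFit, glmQLFTest, filterByExpr, TMM on contact totals, count sums in Hi-C, only the compared groups in the fit), with Benjamini-Hochberg adjustment over all pairs and calls at an adjusted p under 0.05. The test is conditional on listing in both groups. Tested on simulated data with 200 pairs changed 2-fold, the fit recovered 75.5% in the TKO comparison (67728 pairs) and 36.0% in the Hi-C comparison (127440 pairs). The simulation gave all pairs a common dispersion (spread between samples). Changes smaller than 2-fold, such as those called at this locus, were not simulated. Libraries whose counts did not differ by a chi-square test (p of 0.05 or more, pairs of at least 6 CPM, in a group where others differed) were summed: TKO 0 h libraries 2 and 3, TKO 24 h libraries 1 and 3, and ES KLF4 libraries 1 and 2, and 3 and 4. DESeq2 1.42.0 was an alternative. Tables were handled with Python 3.11.15, pandas 2.3.3, numpy 2.4.6 and scipy 1.17.1, and figures with matplotlib 3.10.9.

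Named genes were those the authors' columns give for the 3 bins and their partners, for the 5 strongest flanking pairs per list, the 5 genes nearest to Dppa5a in numbers, and the listed Dppa genes and neighbours. The members and gene lists were chosen with earlier results of these data known.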

Additional observations from a re-analysis of the deposited data

How the results depend on the processing

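Of 35 pairs of the Dppa5a, Ooep and lower bins, 2 were called between the TKO groups. The number was 6 with contact totals in place of TMM, 0 with DESeq2 (2 at an unadjusted p under 0.05, against 12 in edgeR; the Eef1a1 pair had no DESeq2 adjusted p), 1 with neighbouring bins left out of the fit, and 0 to 3 when 1 sample at a time was left out. The 12 pairs with an unadjusted p under 0.05 in the main edgeR fit, 2 of them called, were followed over 10 alternatives. Of their values, 90 kept their side of the threshold, 9 gained a call, 9 lost it and 0 reversed. Another 12 could not be given (neighbouring bins left out, or no DESeq2 adjusted p). The pairs were picked on the same data, so the absence of reversals carries no weight. Over all pairs, DESeq2 called 105 against 1774 in edgeR. The numbers do not pair the TKO libraries (correlations of same-numbered deviations 0.02, 0.01 and -0.01); with the replicate block 3 pairs of the 35 were called, and the Hi-C pair had a log2 difference of -0.24. In Hi-C, leaving out 1 library gave -0.65 to 0.11, the sign turning without the second ES library; the cause was not tested. The log2 ratio of the summed TKO strength was -0.26 with whole-library totals, -0.24 over all 3 bins, -0.32 with separate libraries and -0.34 to -0.19 leaving out 1 sample. In ES the Dppa5a bin had 7 of its 19 H3K27ac interactions above 6 CPM in every library, and 45 with the flanking bins, and in MEF 0 under each alternative. No KLF4 comparison of day 3 or day 6 with ES could be made, since 0 pairs were in both lists, and its alternatives were not run. Counts of 11.3 to 26.97 at the listing limit bound what MEF and ES lists can show, and counting errors ignore PCR duplication.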

Other observations

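Within 300 kb of the Dppa5a bin, the bins with the most MEF H3K27ac interactions lay over Cd109 in RefSeq. They had 8 and 7, at 260 and 270 kb above Dppa5a. Bins on the lower side had 0 or 1, and the rest of the MEF domain was not examined. The bin that the authors' columns assign to Cd109, a surface glycoprotein gene, had 3 interactions in MEF and 5 in day 3 KLF4. It had 1 in each of the ES, TKO 0 h and TKO 24 h H3K27ac lists. Eef1a1, between Cd109 and Dppa5a, had 3 interactions in MEF and 3 in day 3 KLF4. These are values of single lists, with no test.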
